A study of Mus musculus with 12 samples.

Results

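The comparison concerned macrophages lacking Baf60a against their wild-type counterparts, both loaded with oxidised low-density lipoprotein and both without ApoE. It used 4 of the 12 libraries of the series, chosen by their titles. The KO libraries (KO rep1 and KO rep2) came from bone marrow-derived macrophages (BMDMs) of genotype Baf60af/f, Lyz2 Cre+, ApoE KO (Baf60a flanked by loxP sites and exposed to Cre). The WT libraries (WT rep1 and WT rep2) carried the same floxed allele without Cre, Baf60af/f, Lyz2 Cre-, ApoE KO. All 4 cultures had received 50 µg/ml oxLDL for 48 h, and all were cryopreserved before nuclei were prepared and libraries built with a Nextera kit. Age, sex and number of animals were not given in the labels, nor whether replicates were separate animals or cultures. The p-values therefore measure only the spread between these libraries, which may be technical. Lyz2-Cre acts in myeloid cells, and the labels state neither its efficiency nor which exons of the Baf60a gene are deleted.

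ATAC-seq uses a transposase that inserts adapters into open DNA, so that clusters of reads (peaks) mark accessible chromatin. BAF60a, encoded by Smarcd1, is an accessory subunit of the SWI/SNF remodelling complexes, which slide or evict nucleosomes at promoters and enhancers and are directed to some sites by transcription factors that bind their subunits. In arteries, macrophages that take up oxLDL through scavenger receptors become cholesterol-laden foam cells, and ApoE deficiency is the usual mouse background for atherosclerosis. Promoters rich in CpG are open in most cell types, whereas enhancers inside and between genes carry much of a macrophage's own programme. NRF1, a transcription factor of nuclear genes for mitochondrial proteins, binds a CpG-containing palindrome found mostly in such promoters.

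Some promoters named in the results are shown first, as the 250 bases before the RefSeq start (GRCm38.p6), 5′ to 3′ on the gene's strand. Gsta3 and Abcg2 had a peak at the start in both KO lists and in neither WT list, and Emc4 the reverse. Mgst1 and Fancc had a start peak in all 4 lists and were among the regions with the smallest p for a higher and a lower rank in KO, respectively. Cycs, Smarcc1 and Opa1 had a start peak in all 4 lists, held the NRF1 letters and ranked lower in KO by mean. None of these differences passed (limma adjusted p = 0.535 to 0.572). For these letters in general, 267 of 342 regions called in all 4 lists (78.1%) ranked lower, against 62.1% of the 6051 without them. The region of Lrp1, which also holds the letters, ranked higher by mean. Capitals mark matches on either strand to CGCATGCG (NRF1, its own reverse complement), TGANTCA (AP-1), GAGGAAGT (PU.1), CCAAT (NF-Y) and GGGCGG (Sp and KLF factors).
Gsta3, chr1:21240335-21240584, plus strand: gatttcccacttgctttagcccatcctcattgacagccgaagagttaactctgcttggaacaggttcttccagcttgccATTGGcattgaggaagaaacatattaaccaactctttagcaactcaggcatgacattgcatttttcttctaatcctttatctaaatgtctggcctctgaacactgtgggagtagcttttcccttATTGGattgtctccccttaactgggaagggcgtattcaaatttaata
Abcg2, chr6:58640296-58640545, plus strand: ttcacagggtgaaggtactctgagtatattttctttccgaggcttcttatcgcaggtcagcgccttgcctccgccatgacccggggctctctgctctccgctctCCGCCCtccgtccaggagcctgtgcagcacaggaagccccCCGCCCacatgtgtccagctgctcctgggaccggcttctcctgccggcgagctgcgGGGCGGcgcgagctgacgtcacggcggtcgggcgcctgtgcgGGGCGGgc
Emc4, chr2:112368028-112368277, minus strand: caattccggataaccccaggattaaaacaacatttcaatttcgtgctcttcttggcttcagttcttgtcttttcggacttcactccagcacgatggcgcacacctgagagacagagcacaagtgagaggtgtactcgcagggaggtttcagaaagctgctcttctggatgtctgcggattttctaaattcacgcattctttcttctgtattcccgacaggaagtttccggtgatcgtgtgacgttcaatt
Mgst1, chr6:138140277-138140526, plus strand: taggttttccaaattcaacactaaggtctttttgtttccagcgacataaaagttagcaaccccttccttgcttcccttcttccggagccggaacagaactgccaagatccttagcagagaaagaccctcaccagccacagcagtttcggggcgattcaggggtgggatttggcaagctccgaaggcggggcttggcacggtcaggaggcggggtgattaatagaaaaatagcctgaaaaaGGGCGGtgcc
Fancc, chr13:63431746-63431995, minus strand: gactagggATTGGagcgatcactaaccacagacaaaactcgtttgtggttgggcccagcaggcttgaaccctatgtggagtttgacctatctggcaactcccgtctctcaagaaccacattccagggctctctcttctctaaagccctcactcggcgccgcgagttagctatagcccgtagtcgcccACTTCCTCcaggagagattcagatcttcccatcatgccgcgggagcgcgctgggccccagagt
Cycs, chr6:50566570-50566819, minus strand: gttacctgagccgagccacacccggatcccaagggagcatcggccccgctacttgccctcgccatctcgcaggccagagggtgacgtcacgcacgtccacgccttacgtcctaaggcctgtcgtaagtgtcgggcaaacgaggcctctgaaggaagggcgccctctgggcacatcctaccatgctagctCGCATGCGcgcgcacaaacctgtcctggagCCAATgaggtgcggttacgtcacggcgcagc
Smarcc1, chr9:110131774-110132023, plus strand: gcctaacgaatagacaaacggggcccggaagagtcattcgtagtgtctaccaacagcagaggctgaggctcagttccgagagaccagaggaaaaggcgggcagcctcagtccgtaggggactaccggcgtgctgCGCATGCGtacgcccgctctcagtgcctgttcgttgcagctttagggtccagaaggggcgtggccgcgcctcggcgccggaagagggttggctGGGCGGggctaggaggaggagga
Opa1, chr16:29579084-29579333, plus strand: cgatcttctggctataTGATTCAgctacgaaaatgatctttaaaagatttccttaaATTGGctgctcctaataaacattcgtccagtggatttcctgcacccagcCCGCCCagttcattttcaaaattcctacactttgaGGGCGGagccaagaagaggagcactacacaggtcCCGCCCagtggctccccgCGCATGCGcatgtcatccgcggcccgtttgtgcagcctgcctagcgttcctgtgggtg
The NRF1 letters began 61 bases before the start in Cycs, 116 in Smarcc1 and 58 in Opa1. None of the other 5 windows held them.

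The KO libraries had more peaks than the WT libraries, and the excess lay away from gene starts. KO rep1 had 35589 peaks and KO rep2 33934, against 27571 in WT rep1 and 24397 in WT rep2. The means were 34762 ± 1170 (SD, n = 2) in KO and 25984 ± 2244 (SD, n = 2) in WT, and the groups did not overlap. The ratio of geometric means was 1.34 (exact permutation test on the log2 scale, two-sided, p = 0.333). With 2 libraries against 2 there are 6 arrangements, and 0.333 is the smallest two-sided p they can give. Peaks covered 14.4 and 17.7 Mb in KO and 13.1 and 11.3 Mb in WT, a ratio of 1.31 (exact permutation p = 0.333). Read depth is unknown, since the files hold only peaks, and its part in the number of peaks was not tested.

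Peaks whose summit lay within 1 kb of a gene start numbered 10742 and 10145 in KO and 9539 and 9357 in WT, a ratio of means of 1.11. All other peaks numbered 24847 and 23789 in KO and 18032 and 15040 in WT, a ratio of 1.47. The location of peaks was therefore also compared in lists of equal length, the 24397 peaks of highest score in each library, which is the length of the shortest list. In these, 35.3% and 35.02% of KO peaks and 36.8% and 38.4% of WT peaks had their summit within 1 kb of a gene start. The means were 35.2% ± 0.183 (SD, n = 2) and 37.6% ± 1.13 (SD, n = 2), with no overlap, and differed by -2.41 percentage points in KO (exact permutation p = 0.333). In full lists the shares were 30.2%, 29.9%, 34.6% and 38.4% in the same order, a difference of -6.44 points. The plot of peaks by library shows both measures.

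**Figure D1:**
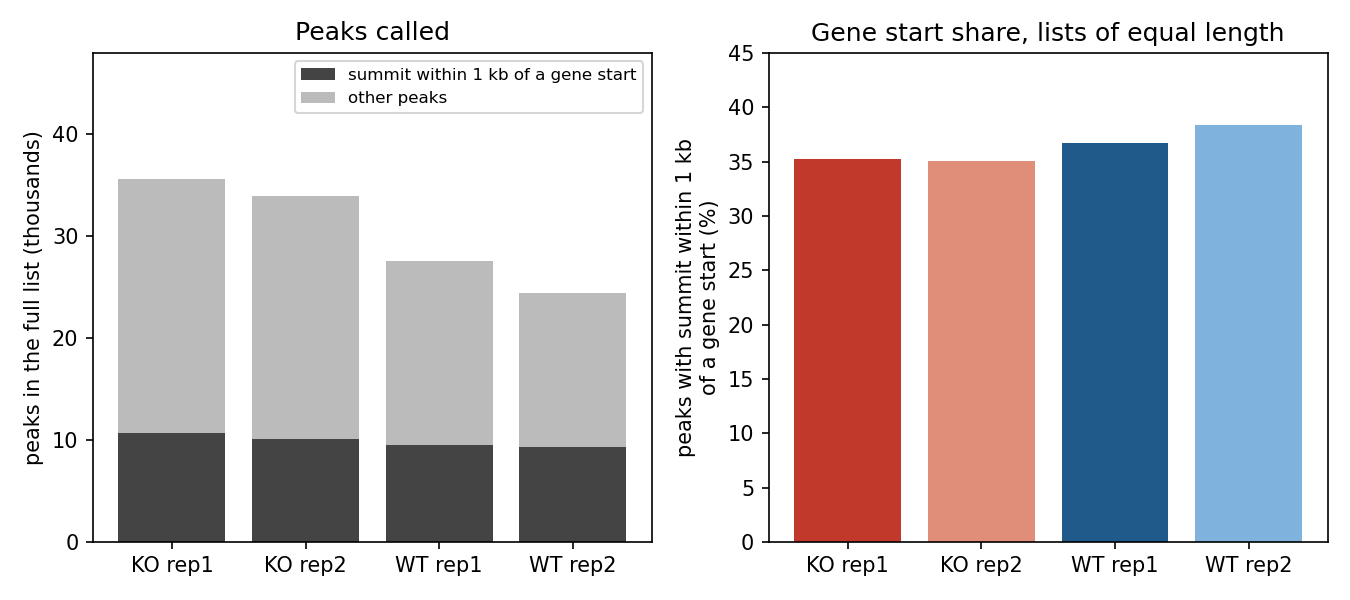
Left, peaks in each deposited list (axis in units of 1000), with those whose summit lay within 1 kb of a gene start in dark grey and all others in light grey; right, the gene start share (%) in the 24397 peaks of highest score of each library. The KO lists hold 35589 and 33934 peaks against 27571 and 24397, the difference is mostly in the light grey part, and both KO shares (35.3% and 35.02%) lie below both WT shares (36.8% and 38.4%).

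Neither peak height nor width gave a stable difference between the genotypes. In full lists the median fold enrichment, the authors' value for the signal at a peak over the local background, was 3.68 and 3.40 in KO and 3.84 and 3.77 in WT, lower in both KO libraries (exact permutation p = 0.333). Equal-length lists gave the opposite sign, with 4.41 and 3.99 in KO and 4.03 and 3.77 in WT, and the groups overlapped (exact permutation p = 0.667). The median score in full lists, 10 times the -log10 q of a peak, was 86 and 103 in KO and 80 and 76 in WT, higher in both (exact permutation p = 0.333). Median width was 300 bp in KO rep1 but 419.5 bp in KO rep2, with 382 and 371 bp in WT. KO rep1 thus had the narrowest peaks of the 4 and KO rep2 the widest. Overlap of covered bases (Jaccard index) was 0.597 between the KO libraries, 0.576 between the WT libraries and 0.524 to 0.576 between genotypes.

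Merging all peaks that overlapped by at least 1 bp gave 44458 regions on the 19 autosomes. Of these, 18696 (42.1%) were called in all 4 libraries. A further 3510 (7.9%) were called in both KO lists and neither WT list, here called KO-only, and 185 (0.416%) in both WT lists and neither KO list, here called WT-only. Longer lists call more regions by themselves. In lists of equal length, 1390 of 33190 regions were KO-only (4.19%) and 747 WT-only (2.25%). The bar chart of call patterns shows that single-library calls were common too, with 5407 regions in KO rep1 alone, 4885 in KO rep2 alone, 2215 in WT rep1 alone and 1514 in WT rep2 alone. No test was made of these counts.

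**Figure D2:**
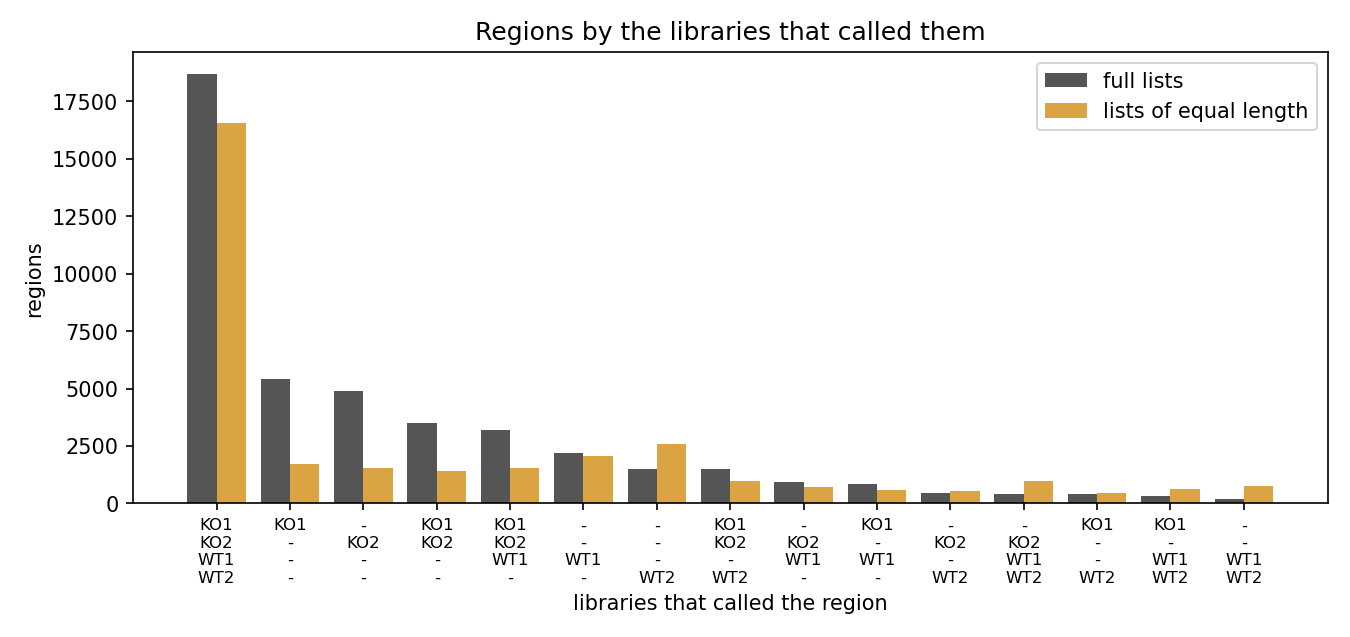
Number of regions for each combination of libraries that called them (KO1, KO2, WT1 and WT2 are the 4 libraries; a dash means not called), in full lists (grey) and in lists of equal length (yellow). Regions called in all 4 are the largest class (18696), and the class called in both KO lists alone drops from 3510 to 1390 once the lists have the same length.

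KO-only regions were short, weak for their lists and mostly distant from gene starts. Only 10.3% lay within 1 kb of a gene start, 48.4% lay elsewhere inside a gene and 41.3% between genes. Of the regions called in all 4, 44.4% lay at a gene start, 29.0% inside genes and 26.6% between genes, and of the WT-only regions 21.6%, 40% and 38.4%. When the equal-length lists were laid over these regions, 7.55% of 1390 KO-only and 23.7% of 764 WT-only regions lay at a gene start. Median distance from a region to the nearest gene start was 21.4 kb for KO-only, 15.9 kb for WT-only and 3.99 kb for regions called in all 4. Median length was 298.5 bp, 296 bp and 743 bp in the same order. Over all 44458 regions the median distance was 12.8 kb and the median length 382 bp. KO-only peaks sat at a median percentile of 32.8 and 30.6 among the fold enrichments of their own lists, and WT-only peaks at 18.02 and 18.4. KO-only regions were spread over all autosomes, from 5.97% of the regions of chromosome 11 to 9.71% of those of chromosome 16.

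Most KO-only regions were called in other BMDM libraries of the series. In the cohort whose labels give no ApoE status, with 1 library a group, the oxLDL WT list called 95.2% of them and the untreated WT list 96.3%. The same 2 lists called 89.3% and 91.5% of all 44458 regions. In the untreated libraries of the ApoE KO cohort, the WT lists called 33.6% and 63.9% of the KO-only regions and the KO lists 83.3% and 53.8%. The same 4 lists called 57.7%, 72.2%, 80.1% and 65.3% of all regions, so both WT lists and 1 KO list called fewer of the KO-only regions than of regions in general. Both untreated KO lists and neither untreated WT list called 290 of the 3510 (8.26%), against 3.01% of all regions, and the reverse held for 24 (0.684%), against 0.43% of all. WT-only regions were called by the untreated WT lists at 45.9% and 77.8% and by the untreated KO lists at 80.5% and 45.9%, against the same shares over all regions.

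A stricter set held regions called in both equal-length lists of one genotype and in neither full list of the other. It had 1225 KO-only and 122 WT-only regions, of which 6.86% and 15.6% lay at a gene start. Median percentiles in their own lists were 51.9 and 47.4 for the KO-only regions and 23.2 and 19.8 for the WT-only ones. The 10 KO-only regions of highest rank had fold enrichments of 4.94 to 8.18 in the KO libraries, with no peak in either WT library. The highest lay inside Hira, a histone H3.3 chaperone gene (mm10, chr16:18958395-18958553), with a fold enrichment of 8.18 in KO rep1 and 6.17 in KO rep2. Next came a region 74.0 kb from Inhba, which encodes the activin A subunit (chr13:15929769-15930288), with 6.22 and 7.04. Others lay inside Rabgap1l, Jazf1, Efna5, Fbxw7, Tbc1d30 and Adgb and at the start of Micu3.

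The start of Micu3, which encodes a regulator of the mitochondrial calcium uniporter (chr8:40388179-40388801), had fold enrichments of 4.95 and 6.09 in KO. It was called in both untreated KO lists and neither untreated WT list of the ApoE KO cohort. Efna5, an ephrin ligand gene, had the same pattern at a region inside it (chr17:62623147-62623601; 5.41 and 6.49). Fbxw7, encoding the substrate receptor of an SCF ubiquitin ligase, had 5.64 and 5.93 at chr3:84935612-84936090, and 1 of the untreated WT lists also called it. All 10 of these regions were called in both untreated KO lists, 2 of them in neither untreated WT list. The Hira region was called in 1 of the 4 libraries of the other cohort, and the other 9 in all 4. These 10 were chosen for their high rank. Of all 1225 KO-only regions of the stricter set, the untreated KO lists called 91.1% and 67.7%. Both untreated KO lists and neither untreated WT list called 8.82%. The 4 libraries of the other cohort called 97.2% to 97.8%.

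The top WT-only regions of this stricter set were weaker, with fold enrichments of 3.08 to 4.57. The first lay inside Cstl1 (chr2:148754395-148754658; 4.02 in WT rep1 and 4.17 in WT rep2). Others lay near Sdhaf4, Rasa1 and Dhx9, inside Dock10 and Cacna1d, and at the starts of Emc4 and Cped1. All 10 were called in all 4 libraries of the other cohort, and each in at least 1 untreated KO list of the ApoE KO cohort. Of all 122 WT-only regions of the stricter set, the libraries of the other cohort called 94.3% to 95.9%. The untreated KO lists called 82.8% and 53.3% of them.

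At gene starts, a peak within 1 kb was present in both KO lists and neither WT list for 295 of 20665 autosomal protein-coding genes (1.43%), and in the reverse for 28 (0.135%). For 9051 genes all 4 libraries had one. In 48 of the 295 genes and 6 of the 28, the peak was part of a region that the other genotype also called but farther from the start, and these were not named. The 10 remaining KO-only starts of highest rank were those of Gsta3, Sp110, Retnlb, Adam22, Hsd17b2, Bpifc, Aplnr, Abcg2, Ccin and Gstm2. Genes were classed here by all their peaks within 1 kb of a start. Micu3, named above for a single region, was not among these 10.

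Gsta3 and Gstm2 encode cytosolic glutathione S-transferases, which conjugate glutathione to electrophiles such as lipid peroxidation products. The Gsta3 start region (chr1:21240027-21240628), whose promoter is shown above, had fold enrichments of 5.10 in KO rep1 and 5.59 in KO rep2, and no peak in WT. Both untreated KO lists of the ApoE KO cohort called it and neither untreated WT list did. The Gstm2 start region (chr3:107985672-107986435) had 4.38 and 3.24, and 1 of the 2 untreated WT lists called it. Abcg2 encodes a plasma membrane efflux transporter, and the region at 1 of its RefSeq starts (chr6:58640442-58640694) had 4.84 and 3.56 in KO. It was called in 1 of the 2 untreated WT lists.

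Retnlb encodes a secreted resistin-like protein, and its start region had fold enrichments of 4.95 and 4.04. Hsd17b2, a steroid dehydrogenase gene, had 4.90 and 3.61. In the untreated ApoE KO cohort, 1 WT and 1 KO list called the Retnlb start. All 4 untreated lists called the starts of Hsd17b2, Adam22 and Ccin. Aplnr, the apelin receptor gene, had 4.2 and 4.02 at a region 0.939 kb from its start, and no untreated list called it. Sp110, an interferon-inducible nuclear body gene, had 5.67 and 4.12 at chr1:85604251-85604520. Sp110, Sp100 and Sp140 are related genes, and short reads cannot always be placed among similar copies. Calls there are therefore uncertain, and the part of read placement was not tested. Only 1 of the 4 libraries of the other cohort called this Sp110 region, while all 4 called each of the other 9.

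The 10 WT-only starts of highest rank had fold enrichments of 2.73 to 4.57. Emc4, encoding a subunit of the endoplasmic reticulum membrane protein complex, had 3.08 in WT rep1 and 4.57 in WT rep2 (chr2:112367627-112368078). Bst1, an ectoenzyme gene of myeloid cells also known as CD157, had 3.73 and 3.36. Tnfsf15, which encodes the cytokine TL1A, had 3.13 and 3.37, and Pfas, an enzyme gene of purine synthesis, 3.08 and 2.96. Others were the starts of Cped1, Shisa9 and Rnf207 and the shared start of 1700008O03Rik and Shank1.

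Strength was compared in the 18696 regions called in all 4 libraries. Each region's fold enrichment was turned into its percentile among these same regions in that library (0 weakest, 100 strongest), so that values are on a common scale, although list length still decides which regions all 4 libraries share. By this measure gene starts ranked lower in KO and the other regions ranked higher. The median percentile of gene start regions was 59.5 in both KO libraries, 63.1 in WT rep1 and 64.9 in WT rep2 (exact permutation p = 0.333, no overlap). Regions elsewhere inside genes had 42.0 and 42.5 in KO and 39.5 and 38.3 in WT (exact permutation p = 0.333, no overlap). Intergenic regions had 44.7 and 44.3 in KO and 42.8 and 41.7 in WT (exact permutation p = 0.333, no overlap). The 3 medians are linked, since a percentile lost in one place is gained in another. The lower rank at gene starts was not a lower fold enrichment. The median fold enrichment of these gene start regions was 5.30 and 4.86 in KO and 5.06 and 4.80 in WT, with overlap. Inside genes it was 4.491 and 4.117 in KO and 4.115 and 3.780 in WT. Between genes it was 4.61 and 4.19 in KO and 4.23 and 3.90 in WT, with overlap.

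Among 8299 gene start regions, 5131 (61.8%) had a lower mean percentile in KO, with a median difference of -2.23 points. Among 5430 regions inside genes, 3044 were higher in KO (median 1.72), and among 4967 intergenic regions 2774 were (median 1.63). No single region passed the test. In limma with Benjamini-Hochberg adjustment over all 18696 regions, 0 were higher and 0 lower in KO (0.0% each), the smallest adjusted p being 0.534. At an unadjusted p under 0.05, 927 were higher and 739 lower. Of the gene start regions, 161 were higher and 444 lower at that level, of the regions inside genes 405 and 147, and of the intergenic ones 361 and 148. With 2 libraries a group, the count of 0 does not show that regions were alike. On simulated libraries the percentile scale found fewer of the regions made to differ than log2 fold enrichment did. Their noise and differences were both made on the log2 scale, with the same spread for all regions. The simulation therefore cannot show which scale suits the real values.

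On log2 fold enrichment centred on each library's median, limma called 39 of the same 18696 regions at an adjusted p under 0.05. Of these, 35 (0.187%) were higher in KO and 4 (0.0214%) lower. Gene starts made up 3 of the 35 higher regions, while 15 lay elsewhere inside genes and 17 between genes. Of the 4 lower regions, 2 were gene starts. Of all 18696 regions, 44.4% lay at gene starts, 29.0% elsewhere inside genes and 26.6% between genes. Regions named from this list were chosen after their values were seen, apart from those also named by the percentile ranks.

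The largest called difference lay inside Atp2b1, which encodes a plasma membrane calcium pump (chr10:98948080-98948494). Its fold enrichment was 8.56 in KO rep1 and 7.88 in KO rep2, against 3.46 in WT rep1 and 3.09 in WT rep2. Both KO values were more than double both WT values. The log2 difference was 1.23 ± 0.16 (SE; limma adjusted p = 0.000387), and on percentiles it was 76.2 ± 11.9 points (SE; limma adjusted p = 0.534).

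Sqor encodes sulfide quinone oxidoreductase of the inner mitochondrial membrane, and a region 0.202 kb from its start (chr2:122770774-122771511) had 9.68 and 9.43 in KO and 5.49 and 4.03 in WT. Its log2 difference was 0.93 ± 0.15 (SE; limma adjusted p = 0.00854). Hsd11b1, which encodes the enzyme that regenerates active glucocorticoid, had 9.87 and 10.9 in KO and 6.38 and 5.26 in WT at its start (log2 difference 0.75, limma adjusted p = 0.0109). Mgst1, a membrane-bound glutathione transferase gene, was the third gene start of the set. Its region (chr6:138140356-138141664) had 9.40 and 8.89 in KO and 5.55 and 5.46 in WT (log2 difference 0.64, limma adjusted p = 0.0417). In these 3 starts the lowest KO value was above the highest WT value.

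Among the regions away from gene starts, Cers6 and Sgms2 encode enzymes of sphingolipid synthesis, a ceramide synthase and a sphingomyelin synthase. The region inside Cers6 had fold enrichments of 7.14 and 6.95 in KO against 3.75 and 3.17 in WT. The region inside Sgms2 had 7.43 and 7.56 against 3.93 and 3.46 (log2 differences 0.94 and 0.93, limma adjusted p = 0.0102 for both). A region 8.69 kb from Emb, an immunoglobulin-family membrane protein gene, had 10.2 and 8.15 against 5.19 and 4.68, and one 44.8 kb from Cop1, a ubiquitin ligase gene, 9.97 and 9.01 against 5.09 and 5.11.

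The 4 regions lower in KO lay at the starts of Fancc and Rnf19b, inside Zmiz1 and near Zfp438. Fancc encodes a subunit of the Fanconi anaemia core complex, and its start region (chr13:63430823-63432015) had 5.14 and 5.01 in KO and 7.45 and 7.65 in WT. Its log2 difference was -0.67 ± 0.15 (SE; limma adjusted p = 0.0486). Rnf19b, a RING finger ubiquitin ligase gene, had 2.80 and 3.13 in KO and 5.15 and 5.07 in WT at its start (log2 difference -0.88, limma adjusted p = 0.029). Zmiz1, a PIAS-like coregulator gene, had 2.27 and 2.02 against 4.18 and 3.61 at a region inside it (log2 difference -0.96, limma adjusted p = 0.0102).

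**Figure D3:**
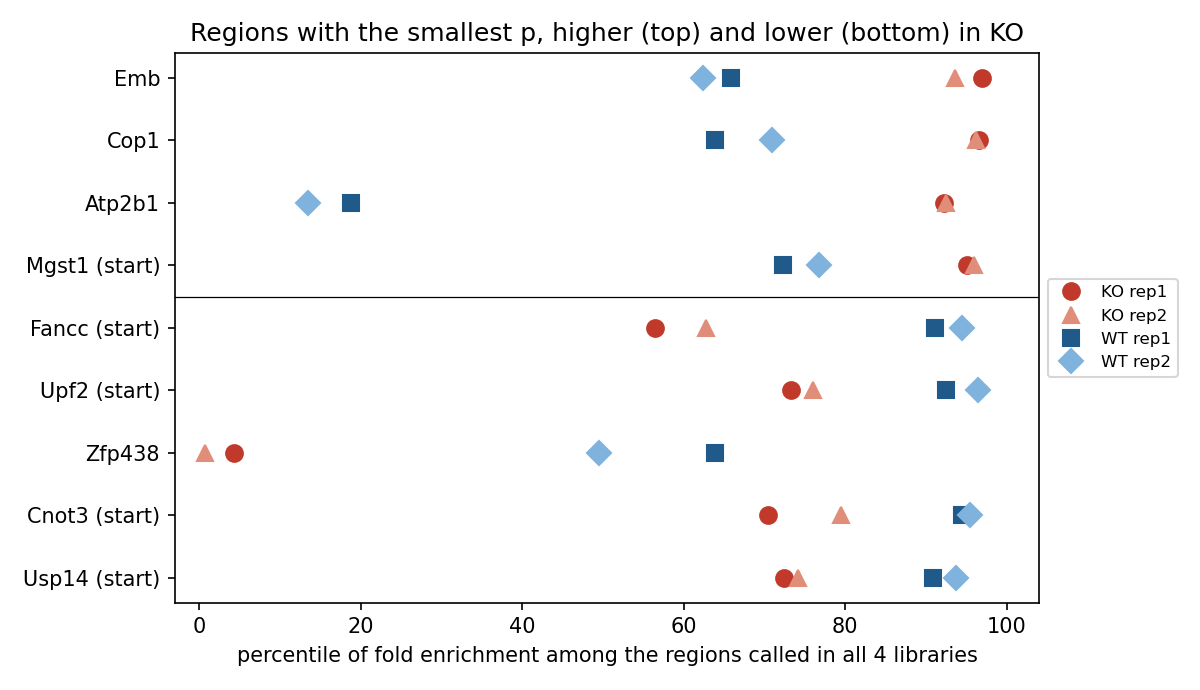
Percentile of fold enrichment (0 to 100, among the 18696 regions called in all 4 libraries) of regions with the smallest p in each direction (4 higher and 5 lower in KO), with 1 point per library; (start) marks a region within 1 kb of a gene start. KO points lie to the right of both WT points in the upper 4 rows and to the left in the lower 5, and the widest gap is at Atp2b1, at 92.2 and 92.5 in KO against 18.8 and 13.4 in WT.

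Of the 5 regions with the smallest p for a lower percentile in KO, 4 were gene starts, while 1 of the 5 for a higher percentile was. Gene starts were 44.4% of all 18696 regions tested. The lower ones were the starts of Fancc, of Upf2 (nonsense-mediated decay), of Cnot3 (the CCR4-NOT deadenylase complex) and of Usp14 (a deubiquitinase of the proteasome), and a region 9.89 kb from Zfp438. The Upf2 start was at percentile 73.3 and 76.0 in KO and 92.5 and 96.4 in WT, and the Cnot3 start at 70.4 and 79.5 against 94.4 and 95.4. The differences were -19.8 ± 3.68 and -20.0 ± 4.14 points (SE; limma adjusted p = 0.534 for both).

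Promoter letters were set beside these ranks, in splits chosen after the values were seen. The RefSeq table gave 20085 promoters of 16457 genes, each 300 bases long (250 before the start and 50 after). CGCATGCG was found in 2.54% of all promoters, in 5.23% of the 7857 whose window had a peak in all 4 libraries, and in 0.562% of the 10143 with none. Of the 250 promoters with a peak in KO only, 1 (0.4%) held it, and of the 24 in WT only, 1 (4.17%). Of the 511 promoters with these letters, 339 also held GGGCGG and 153 CCAAT.

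Shared promoters with the NRF1 letters ranked lower in KO more often than those without. Their 342 regions had median percentiles of 62.8 and 62.9 in KO and 68.6 and 72.4 in WT, and 267 (78.1%) were lower in KO, with a median difference of -4.84 points. The 6051 regions without these letters had 63.0 and 63.2 in KO and 66.6 and 68.1 in WT, with 62.1% lower and a median of -2.16. CpG number moved with the ranks as well. Shared promoters were split into 4 groups by their number of CpG, and from the fewest to the most the median difference was -0.97, -2.21, -2.43 and -3.52 points. Within these groups, promoters with the NRF1 letters had medians of -4.61, -7.07, -5.38 and -4.54 (60, 77, 96 and 82 regions), against -0.86, -2.08, -2.30 and -3.49 without them. Promoters with the letters had the lower median in all 4 groups, although in the group with the fewest CpG their library medians overlapped (61.2 and 59.1 in KO, 57.9 and 64.3 in WT), and no test was made of these medians.

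The other motifs showed smaller gaps, and all but GGGCGG had the less negative median where present. Shared promoters holding TGANTCA had a median difference of -1.23 points (296 regions), against -2.325 without it. Those holding GAGGAAGT had -0.50 (224) against -2.319. For CCAAT the medians were -1.53 (2755) against -3.095, and for GGGCGG -2.35 (4675) against -2.114. TGANTCA was found in 7.06% of all promoters, GAGGAAGT in 3.18%, CCAAT in 38.1% and GGGCGG in 47.0%. A match describes the sequence and not binding.

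**Figure D4:**
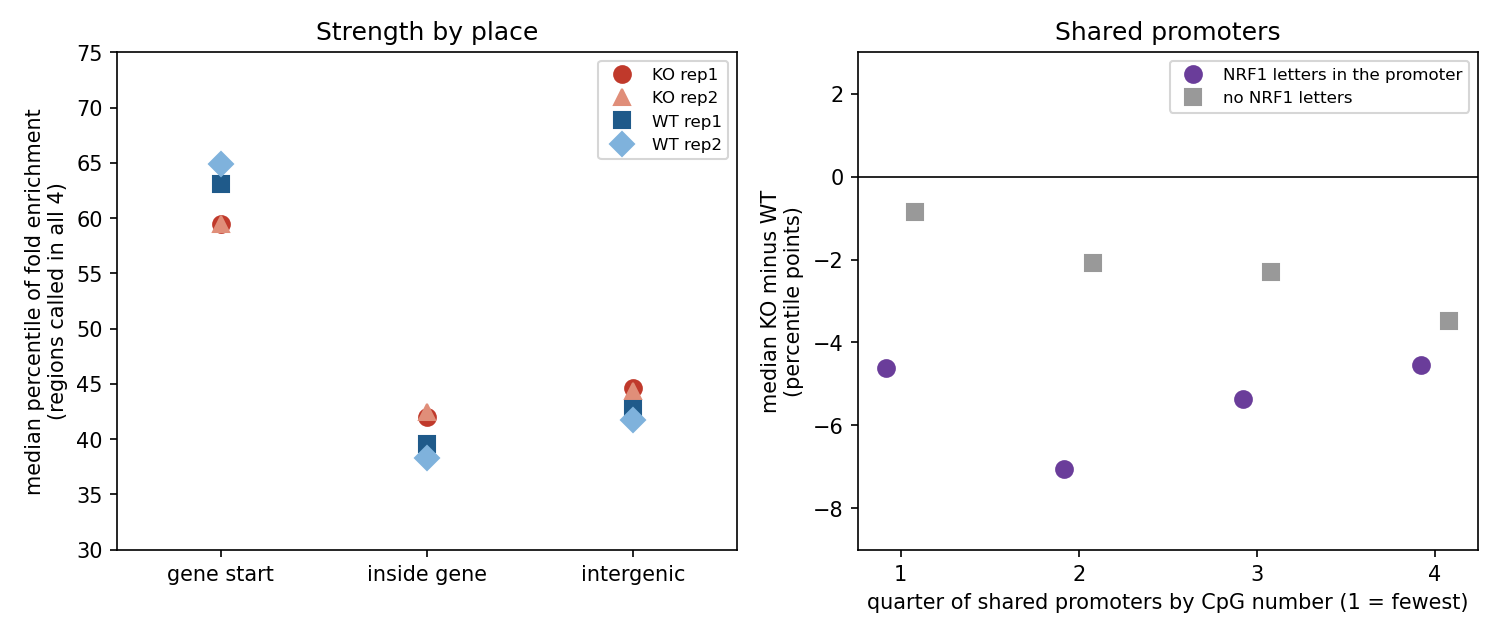
Left, the median percentile of fold enrichment of regions called in all 4 libraries, by place, with 1 point per library; right, the median difference between KO and WT (percentile points) of shared promoters with and without the NRF1 letters CGCATGCG, in 4 groups by number of CpG. Both KO points lie below both WT points at gene starts (59.5 in each, against 63.1 and 64.9) and above them elsewhere, and promoters with the letters lie below those without in each of the 4 groups.

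Gene lists chosen for this tissue and treatment were read at the gene start. Their 247 genes included 244 on autosomes, and at the gene start 0 of these passed limma on percentiles in either direction. None of the 39 regions called on log2 fold enrichment lay at a start of these genes. Members with a start peak in both KO lists and neither WT list were Ss18, Sp110, Batf3 and Kit, and none had the reverse. These are 4 of 244 genes, near the 1.43% of all genes. The other members named were chosen after their values were seen. For scale, the 9051 genes with a start peak in all 4 libraries had a median difference of -2.30 points, with 62.7% lower in KO. The strip plot of gene lists gives the members' values.

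**Figure D5:**
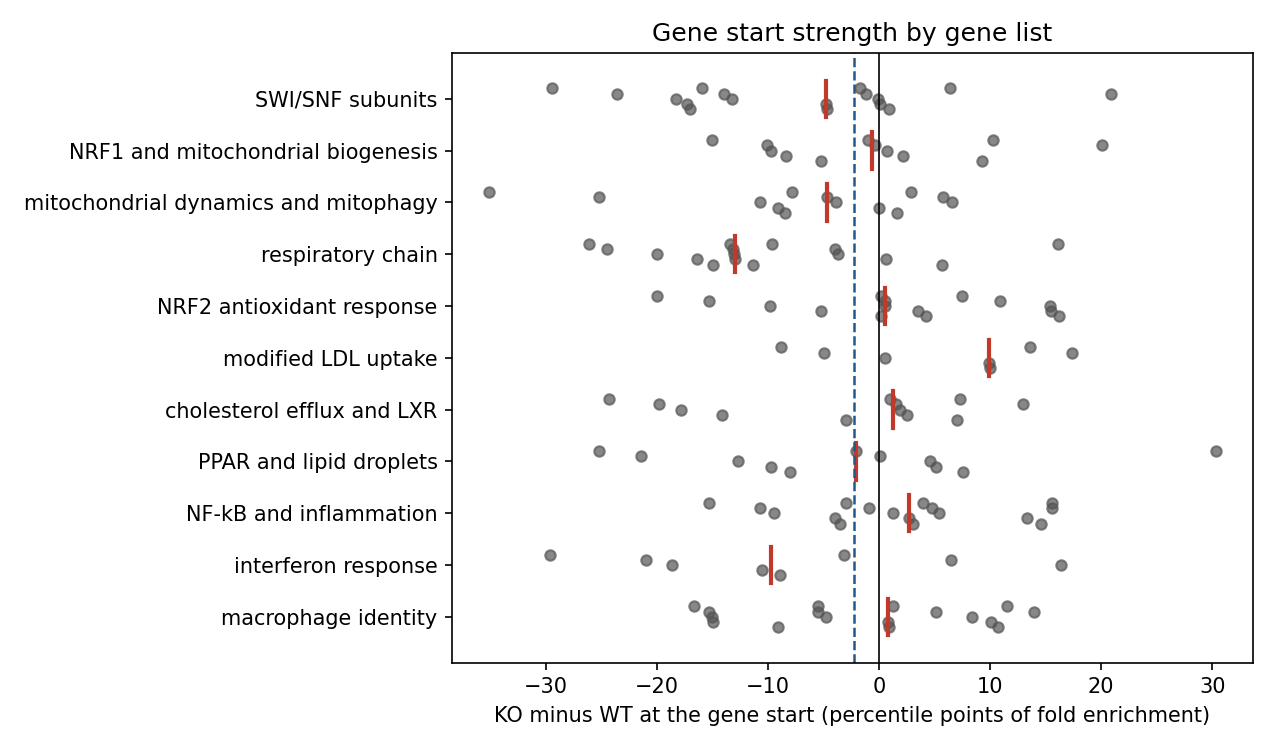
Difference between KO and WT in the percentile of fold enrichment at the gene start, with 1 grey point per gene called in all 4 libraries, for the lists with at least 5 such genes; red bars are list medians, and the dashed line is the median of all genes with such a start (-2.30). The respiratory chain genes lie furthest to the left (median -13.0), and the points of most lists spread to both sides of 0.

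Respiratory chain genes, which encode subunits of the oxidative phosphorylation complexes and cytochrome c, had a start peak in all 4 libraries for 16 of 16 genes. Of these, 13 were lower and 3 higher in KO, with a median difference of -13.0 points. Their median percentiles were 53.6 and 43.0 in KO and 64.2 and 48.0 in WT, so the libraries overlapped on this measure. Ndufs1, a subunit of complex I, was at percentile 58.8 and 70.1 in KO and 89.2 and 91.9 in WT, a difference of -26.1 ± 6.01 points (SE; limma adjusted p = 0.534). Atp5a1, the alpha subunit of ATP synthase, was at 53.6 and 62.7 against 86.7 and 78.6. Cycs, the cytochrome c gene with the NRF1 letters shown above, was at 93.6 and 92.3 against 96.3 and 97.6. Cox4i1, a subunit of complex IV, went the other way, at 53.6 and 14.0 against 11.0 and 24.4, with overlap.

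The list of NRF1 and mitochondrial biogenesis factors had 12 of 13 starts called in all 4, with 7 lower and 5 higher (median -0.66). The start of Nrf1 itself (chr6:30047482-30048883) was at 51.6 and 53.3 in KO and 70.6 and 44.8 in WT, with overlap. Polg, the mitochondrial DNA polymerase, was at 79.9 and 87.6 against 93.7 and 93.3, and Ssbp1, the mitochondrial single-stranded DNA-binding protein, at 78.2 and 68.0 against 86.7 and 89.6. Polrmt, the mitochondrial RNA polymerase, was on the higher side at 68.5 and 51.8 against 29.8 and 50.4, and Tfam, the mitochondrial transcription factor, at 93.9 and 78.0 against 81.9 and 69.6 with overlap. Among 13 genes of mitochondrial dynamics and mitophagy 8 were lower and 5 higher (median -4.67). Opa1, the inner membrane fusion GTPase, was at 82.7 and 83.4 in KO and 93.4 and 89.6 in WT, and Optn, a mitophagy receptor, at 33.6 and 29.0 against 55.5 and 77.5. None of these passed (limma adjusted p = 0.534 to 0.925).

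SWI/SNF subunit genes were lower in KO at 13 of 17 starts with a value, with a median of -4.77 points. Smarcc1, a core scaffold subunit, was at 64.4 and 72.4 in KO and 81.5 and 81.9 in WT. Smarca2, the BRM ATPase, was at 98.3 and 97.1 against 90.8 and 92.0, above both WT libraries. Ss18, a subunit gene counted as a KO-only start, lay in a region that all 4 libraries called, at 77.1 and 75.7 in KO and 88.8 and 92.1 in WT. The targeted gene Smarcd1 had a start peak in all 4 libraries (chr15:99702016-99702648), with fold enrichments of 2.74 and 2.82 in KO and 2.67 and 3.21 in WT. That region lies at the start and, without the position of the deleted exons, does not check the genotype labels. Among its paralogues, Smarcd2 had a region inside the gene (chr11:106272425-106273280) in all 4 libraries, and Smarcd3 had only regions of a single library each.

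Genes of modified LDL uptake had a start peak in all 4 libraries for 7 of 12, with 5 higher and 2 lower in KO (median 9.89 points). Cxcl16, which encodes a scavenger receptor and chemokine, was at 26.6 and 21.2 in KO and 6.37 and 6.78 in WT, with no overlap (17.3 ± 6.70 points, SE; limma adjusted p = 0.55). Cd36, a scavenger receptor gene for oxLDL, was at 70.7 and 40.1 against 53.8 and 37.3, with overlap. Marco had no start peak in any library, and 3 of the 9 regions within 50 kb of the gene were KO-only. Around all 12 genes of the list the count was 13 of 123, against 7.9% of all regions. It was 8 of 162 around the efflux and LXR list, 9 of 156 around the SWI/SNF list and 12 of 126 around the NRF2 list. Around the NF-kB list it was 12 of 171, and around the interferon list 22 of 166. Regions count once per gene, so those that neighbouring genes of a list share are counted more than once. No test was made of these counts. Abca1, the cholesterol exporter of the efflux and LXR list, was at 52.0 and 52.3 in KO and 69.7 and 70.3 in WT, and in that list 7 were higher and 5 lower (median 1.25).

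Of the NRF2 antioxidant list, 11 starts were higher and 4 lower (median 0.55), and Gpx1, a glutathione peroxidase gene, was at 73.6 and 75.9 against 60.2 and 58.6. In the PPAR and lipid droplet list 5 were higher and 6 lower (median -2.06). Angptl4, a PPAR target that inhibits lipoprotein lipase, was at 37.9 and 34.5 in KO and 7.54 and 4.09 in WT (30.4 ± 8.16 points, SE; limma adjusted p = 0.534). The NF-kB list had 10 higher and 7 lower (median 2.66). The interferon list had 2 higher and 6 lower (median -9.78), with Rsad2, an antiviral enzyme gene, at 14.6 and 5.58 against 45.5 and 33.9.

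Macrophage identity genes had a start peak in all 4 libraries for 18 of 23, among them Spi1, Cebpa, Csf1r, Adgre1 and Mertk. Cebpa, a myeloid transcription factor gene, was at 86.6 in both KO libraries against 76.3 and 74.0. Ctsd, a lysosomal protease gene, was at 26.4 and 15.9 against 33.8 and 39.2, and in the list 9 starts were higher and 8 lower (median 0.76). Markers of other cell types were mostly closed. A start peak was found in all 4 libraries for 0 of 8 B cell markers, 2 of 10 T and NK cell, 0 of 8 dendritic cell, 0 of 8 mast cell and basophil, 1 of 7 erythroid and megakaryocyte, 0 of 8 fibroblast and 2 of 10 neutrophil markers. Each of these lists had 0 to 3 of its genes called in any library, KO or WT. The neutrophil genes called in all 4 were S100a8, at percentile 86.4 and 81.9 in KO and 50.1 and 63.2 in WT, and Camp, at 40.8 and 45.7 against 23.3 and 20.6. Csf3r was called in KO rep2 alone. Elane, Mpo, Ltf, Ngp and Ly6g had no start peak, and the part of neutrophils in the result was not tested.

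Width was compared as the called bases of each shared region, on the log2 scale and centred on the library's median, since KO rep1 and KO rep2 differed most. With limma 0 of 18696 regions were wider and 0 narrower in KO (0.0% each; smallest adjusted p 0.448), and at an unadjusted p under 0.05 there were 689 and 556. The count was 370 without WT rep1 and 257 without WT rep2, where the spread comes from the KO pair alone. The smallest p belonged to the start of Calhm6, a calcium homeostasis modulator gene, with 1397 and 1335 bp called in KO and 326 and 333 bp in WT. A region 26.8 kb from Marco had 944 and 1377 bp against 358 and 159 bp. In the other direction, a region inside Tbxas1, the thromboxane synthase gene, had 141 and 214 bp in KO and 860 and 722 bp in WT, and the start of Ptges3, a prostaglandin E synthase and co-chaperone gene, 366 and 837 bp against 1430 and 1324 bp.

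Counts near the altered loci were also taken. Per the labels, both genotypes had the floxed Baf60a allele and lacked ApoE. Only the Cre at Lyz2 differed, so only the Lyz2 window bears on DNA flanking an allele that differs between the groups. Within 5 Mb of Smarcd1, 18 of 297 regions were KO-only (6.06%), within 5 Mb of Lyz2, whose locus holds the Cre, 14 of 216 (6.48%), and within 5 Mb of Apoe 14 of 209 (6.70%). Each window had 1 WT-only region. All 3 shares were below the 7.9% of the whole genome, and the part of flanking DNA was not tested. The Lyz2 start itself was at percentile 31.4 and 38.3 in KO and 26.2 and 15.7 in WT. At Apoe, the regions inside the gene and at its neighbour Tomm40 that all 4 libraries called had fold enrichments of at most 2.47, at percentiles of at most 0.92, in KO and WT alike.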

How the data were processed

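Reads were 150 bases long and paired, per the labels. Per the submitters' processing notes, peaks came from MACS2 on the mm10 build, with Bowtie2 2.3.4.1, cutadapt, Trim Galore, SAMtools 1.2, FastQC, Picard and bedtools 2.28.0 also named. Their settings, such as a transposase shift or removal of duplicates, were not stated. The authors deposited a separate peak list for every library. Each peak has a score, a fold enrichment (a ratio) and the -log10 of a p and a q, as deposited by the authors. Rounding down 10 times the deposited -log10 q gave the score, with 0 to 5 exceptions in a list. Only autosomes were used. No list holds reads, so depth is unknown.

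Peaks were merged with Python 3.11.15 (pandas 2.3.3, numpy 2.4.6). Where a region held several peaks of a library, the highest fold enrichment and the summed bases counted. Gene starts came from the RefSeq promoter table (GRCm38.p6) for 16457 of 20665 genes, and for the other 4208 both ends of the gene counted. Region strength and width were tested with limma 3.58.1 (trend) in R 4.3.3, 2 libraries against 2, adjusted over all regions. Single values were tested by exact permutation. Merging, calls per library, the gene start window and the limma fit on strength were checked on simulated data, and the other steps were not.

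By rule, the named genes were Smarcd1, Smarcd2, Smarcd3, Nrf1, Lyz2 and Apoe, the 10 one-genotype regions and gene starts of highest rank, the 5 regions of smallest limma p per direction, and list members with a start peak in both libraries of one genotype only. The other list members, the regions named on log2 fold enrichment, and the splits of promoter strength by motif and CpG number were chosen after their values were seen. The members, lists and motifs were chosen with earlier results of these data known. The alternatives were peaks with a score of at least 50, lists of equal length, other coverage rules, a 5 kb window, other scales, single-peak regions, a replicate block and leaving out each library. Some of the genes this rule selects are not reported here.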

Additional observations from a re-analysis of the deposited data

How the results depend on the processing

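Peak number, covered bases and gene start share kept their direction under all alternatives run. Without 1 library the ratio of peak numbers was 1.26 to 1.42 and the share difference -3.20 to -1.61 points. KO-only regions numbered 1390 in lists of equal length and 5033 to 9409 without 1 library. WT-only regions numbered 747 in lists of equal length, 71 at a score of at least 50, 306 where a library had to cover at least 50% of a region, and 525 to 2449 without 1 library. Region strength gave 39 calls on log2 fold enrichment and 0 under the other alternatives. Region width gave 0 to 370 calls without 1 library, 370 without WT rep1 and 257 without WT rep2, where the lone WT library is assumed to vary like the KO pair.

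Replicate numbers are not stated to pair libraries, and same-numbered libraries did not deviate together (correlation -0.00777 for strength, -0.0275 for width). With the number as a replicate block, width gave 110 calls (75 wider and 35 narrower) and strength 0, and the peak ratio stayed 1.34 and the share difference -2.41 points (smallest exact p of the paired design 0.5). The cause of these differences between alternatives was not tested.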

Other observations

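A few gene neighbourhoods held several KO-only regions, and these were singled out after their values were seen. Within 50 kb of Ptprk, a receptor tyrosine phosphatase gene, 6 of 9 regions were KO-only, of Col4a2, a collagen IV gene, 6 of 16, of Maml2, a Notch coactivator gene, 6 of 19, and of Snx29 6 of 26. For Col4a2, Maml2 and Snx29 all 6 were called in all 4 libraries of the cohort whose labels give no ApoE status, and for Ptprk 5 of the 6.

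Tcp10c (9 of 42), Gm5373 (6 of 38) and Gm38510 (8 of 98) had 21.4%, 15.8% and 8.16% KO-only regions, the last near the 7.9% of all regions. In those 3 neighbourhoods 8 of 9, 6 of 6 and 6 of 8 of the KO-only regions were called in no library of that cohort, while 7, 4 and 6 of them were called in at least 1 untreated WT library of the ApoE KO cohort. Tcp10c and Gm38510 belong to gene families with near-identical copies, where the placing of reads is uncertain, and its part in these counts was not tested. The Gm38510 neighbourhood overlaps that of C130026I21Rik, so the regions counted for these genes are partly the same.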
